A study of Mus musculus with 8 samples.

Results

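The genes described here carry peptides from the cytosol to the cell surface on MHC class I molecules. They are the class I heavy chains H2-K1 and H2-D1, their light chain B2m, the peptide transporter subunits Tap1 and Tap2, the loading factor Tapbp (tapasin), the immunoproteasome subunits Psmb8, Psmb9 and Psmb10, and the class I transactivator Nlrc5. The 10 genes were taken by symbol from the array rows that carry 1 gene symbol in the platform annotation, and where a gene had several such rows the one with the highest mean over the 8 arrays was used. Of the 10 genes, 9 had such a row, out of 22180 genes in 23521 rows. The only row listing H2-D1 also lists H2-Q2, so H2-D1 has no value here.

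The samples were 8 whole mammary tumors of MMTV-PyMT mice, whose transgene expresses the polyoma middle T oncogene in mammary epithelial cells, and each tumor, flash-frozen whole from inguinal and thoracic glands, gave 1 Affymetrix array of log2 signals. The 4 tumors called cKO came from MMTV-PyMT+/MMTV-Cre+/Mmp14(f/f) mice, and the 4 called WT from MMTV-PyMT+/Mmp14(f/f) littermates that the submitters label wild-type. Both groups thus carried the PyMT transgene and floxed Mmp14 alleles, were congenic FVB/NJ and were 3 to 4 months old, and the Cre transgene was present in the cKO group alone. The MMTV promoter directs Cre mainly to mammary epithelium, so Mmp14, a membrane-anchored matrix metalloproteinase, was targeted mainly in the carcinoma cells. Whether other cells of the tumor kept the gene was not measured. Effects of Cre itself and of the loss of Mmp14 cannot be told apart in these groups. In bulk tumors, fewer cells of a type and less RNA per cell cannot be told apart either.

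As background, the proteasome cuts cytosolic proteins into peptides, and interferons replace its constitutive catalytic subunits by Psmb8, Psmb9 and Psmb10, which changes the peptides made. The transporter of Tap1 and Tap2 moves these peptides into the endoplasmic reticulum, where Tapbp bridges it to empty class I molecules of a heavy chain and B2m. Nlrc5 acts on the promoters of class I genes and their partners as the counterpart of the class II transactivator, and cytotoxic T cells read the loaded molecules on nearly all nucleated cells, tumor cells included.

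Promoters of both heavy chains, B2m and Tap1 are shown because class I genes are known for shared promoter elements, on which Nlrc5 and interferon signalling act. RefSeq on GRCm38.p6, the C57BL/6J reference, gave windows for 8 of the 10 members, all but Tap2 and Nlrc5. Each sequence below holds the 250 bases before an annotated transcription start, written 5′ to 3′ on the gene's strand. Capitals mark matches on either strand to 5 short motifs. These are the Y box CCAAT, the X2 core TGACG, the interferon-gamma activated site (TTC, any 3 bases, then GAA), the core of the interferon-stimulated response element (GAAA, any 2 bases, then GAAA again), and the kappa B consensus.
H2-K1: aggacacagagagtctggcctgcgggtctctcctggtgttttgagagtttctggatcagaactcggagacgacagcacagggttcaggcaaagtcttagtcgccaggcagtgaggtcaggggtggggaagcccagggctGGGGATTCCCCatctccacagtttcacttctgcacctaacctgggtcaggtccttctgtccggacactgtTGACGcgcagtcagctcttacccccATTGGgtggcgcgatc
H2-D1: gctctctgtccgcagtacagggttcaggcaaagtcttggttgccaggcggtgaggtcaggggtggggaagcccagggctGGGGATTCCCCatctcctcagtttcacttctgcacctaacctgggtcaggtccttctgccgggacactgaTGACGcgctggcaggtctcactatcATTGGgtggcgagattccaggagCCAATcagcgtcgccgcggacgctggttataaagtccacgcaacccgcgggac
B2m: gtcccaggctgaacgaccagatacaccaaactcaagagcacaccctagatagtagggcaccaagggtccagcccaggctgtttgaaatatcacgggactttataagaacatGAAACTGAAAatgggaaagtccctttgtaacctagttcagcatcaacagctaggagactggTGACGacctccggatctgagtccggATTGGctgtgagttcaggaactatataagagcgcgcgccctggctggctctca
Tap1: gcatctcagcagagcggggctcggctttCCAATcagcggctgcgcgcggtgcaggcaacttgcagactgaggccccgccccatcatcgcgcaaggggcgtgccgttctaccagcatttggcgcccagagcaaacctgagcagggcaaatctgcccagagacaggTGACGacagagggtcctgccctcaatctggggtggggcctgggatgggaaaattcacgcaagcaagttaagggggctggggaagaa

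The H2-K1 window lies at chr17:34000348-34000597 on the minus strand and that of H2-D1 at chr17:35262844-35263093 on the plus strand. The B2m window lies at chr2:122147437-122147686 and that of Tap1 at chr17:34187306-34187555, both on the plus strand. H2-K1 and H2-D1 aligned with 87.4% identity over 190 bases of these windows and shared an unbroken run of 47 bases. Both windows hold the kappa B consensus at a pair of overlapping positions. Tap1 and Psmb9 are transcribed away from each other, and 225 bases of their windows are the same DNA read on opposite strands, so a single Y box and a single X2 core there are counted for both genes.

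Of the 8 members with a window, 6 held a Y box, against 33.8% of all 32851 windows of this length. The X2 core was in 5 of the 8, against 17.8% of all windows. The kappa B consensus was in 2, the heavy chains, against 5.0% of all. An exact match to the interferon response core was in B2m alone (2.98% of all windows), and one to the interferon-gamma site in Psmb8 alone (7.02%). Variant forms of these sites were not searched for, so other windows, those of both heavy chains included, may hold them. The motifs do not overlap one another in the windows printed, apart from the paired kappa B matches. A match is a description of letters, counted without regard to the order or spacing of the motifs, and no binding was measured.

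The comparison asked whether class I processing genes differed between tumors with and without the Cre that targets Mmp14. Mmp14 itself, which checks the labels, had log2 signals between 8.86 and 9.31 in WT tumors and between 7.44 and 7.98 in cKO tumors, a mean difference of −1.40 (limma adjusted p 0.0444). That call was lost without any one of WT 1 to WT 4, cKO 2 or cKO 4, where the limma adjusted p lay between 0.0582 and 0.211, while the difference stayed between −1.48 and −1.30 with any single tumor left out. All 9 measured class I processing genes had a lower mean in cKO tumors, with differences from −0.48 in Tap2 to −0.07 in Psmb10 around a median log2 difference of −0.24, and none of the 9 passed the threshold. Over all rows tested the median difference was 0.02, and 43.5% had a lower mean in cKO. With limma, 0 of the 9 passed an adjusted p of 0.05, where 0.0085% of all rows passed. Tap2 and Tapbp had an unadjusted p below 0.05 in the lower direction, as did 4.14% of all rows. Neither had one with WT 1, WT 4, cKO 1 or cKO 4 left out, and Tapbp had none without WT 3 either. In 0 of the 9 genes were all cKO tumors below all WT tumors, as was the case in 1.73% of rows. The median of the 9 differences was −0.09 without cKO 1, −0.43 without WT 2 and −0.45 without cKO 3, so single tumors of either group set its size. Within arrays 1 to 4 of the sample descriptions the median was −0.24, and within arrays 5 to 8 it was −0.19, with 9 and 7 of the 9 genes lower.

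**Figure D1:**
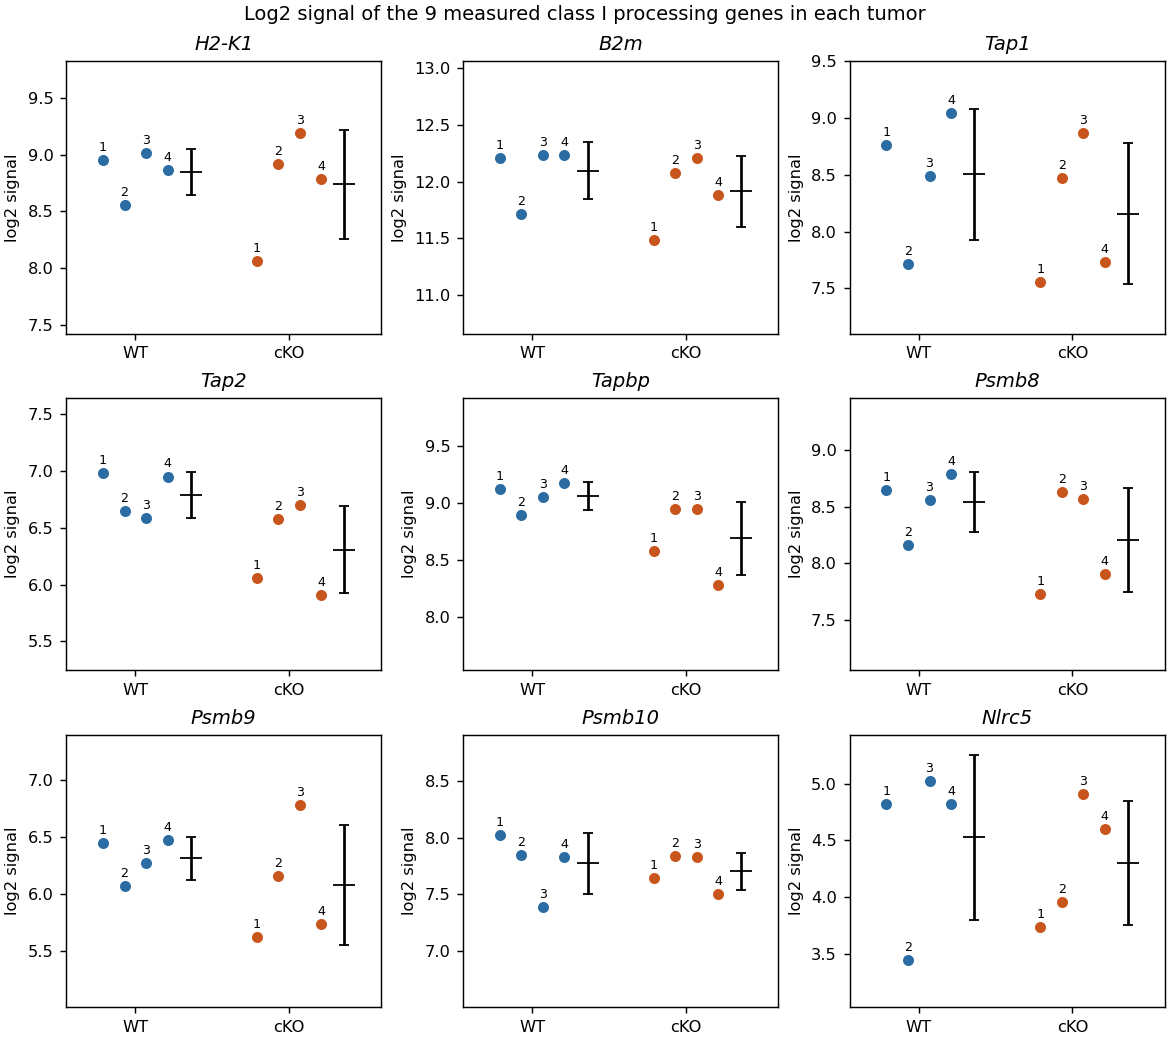
Log2 signal of each of the 9 measured genes in WT (blue) and cKO (orange) tumors, with the tumor's number above its point, and the mean with its SD (n = 4) as a bar beside each group. Each panel spans the same number of log2 units. The groups overlap in all 9 panels, and tumors WT 2, cKO 1 and cKO 4 lie low in most of them.

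Among the surface molecules, H2-K1, a classical heavy chain that presents peptides, had log2 signals of 8.95, 8.56, 9.01 and 8.87 in WT tumors 1 to 4 and 8.06, 8.92, 9.19 and 8.79 in cKO tumors 1 to 4. The cKO tumors thus lay on both sides of the WT tumors, with the highest signal of all 8 in cKO 3 and the lowest in cKO 1. The mean difference was −0.11 (SE 0.22, 95% confidence interval −0.61 to 0.39, limma adjusted p 0.908). It was 0.12 without cKO 1 and −0.05 without WT 3, and −0.26, −0.20 and −0.17 without cKO 3, WT 2 and cKO 2. Class I heavy chains are near-identical relatives, so the row of H2-K1 may also read others, and FVB/NJ mice carry another MHC haplotype than the reference strain. The part of either in the signal was not tested.

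B2m, the invariant light chain that every classical class I molecule needs, gave 12.20, 11.72, 12.23 and 12.23 in WT tumors 1 to 4. In cKO tumors 1 to 4 it gave 11.49, 12.08, 12.21 and 11.88. WT 2 stood apart from the other 3 WT tumors, which lay close together, and cKO 1 was lowest. The difference was −0.18 (SE 0.18, interval −0.58 to 0.22, limma adjusted p 0.779), which is 88.1% of the WT signal, with an interval from 66.8% to 116%. It was −0.31 without WT 2, −0.28 without cKO 3 and −0.04 without cKO 1.

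The transporter subunits differed in how far their groups overlapped. Tap1, which is transcribed away from Psmb9, ran from 7.71 in WT 2 through 8.49 in WT 3 and 8.77 in WT 1 to 9.05 in WT 4. In cKO tumors 1 to 4 it was 7.56, 8.48, 8.87 and 7.74, so both groups covered nearly the same span. The difference of −0.35 (SE 0.35, interval −1.13 to 0.44, limma adjusted p 0.790) had the widest interval among the class I chains, transporter subunits and tapasin. It was −0.61 without WT 2 and −0.58 without cKO 3, and −0.15 without cKO 1, −0.17 without WT 4 and −0.21 without cKO 4. Tap2, the partner subunit, had signals of 6.98, 6.65, 6.59 and 6.95 in WT and 6.05, 6.57, 6.70 and 5.91 in cKO. Here cKO 1 and cKO 4 lay below all WT tumors, and cKO 2 just below the lowest of them. The difference was −0.48 (SE 0.19, interval −0.91 to −0.06), or 71.5% of the WT signal, with an unadjusted p of 0.0306 from limma and a limma adjusted p of 0.473.

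Tapbp, which holds empty class I molecules at the transporter, had signals of 9.13, 8.89, 9.05 and 9.17 in WT and 8.58, 8.95, 8.95 and 8.28 in cKO. WT tumors lay close together, within 0.28, while cKO 1 and cKO 4 lay below all of them. The difference was −0.37 (SE 0.16, interval −0.72 to −0.02), or 77.2% of the WT signal, with an unadjusted p of 0.0397 from limma and a limma adjusted p of 0.494. A further row of Tapbp with 1 symbol, at a mean of 5.07, differed by −0.18 (limma adjusted p 0.749), in the same direction and smaller. The first row differed by −0.24 without cKO 4.

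The immunoproteasome subunits Psmb8 and Psmb9, both encoded beside the transporter genes in the MHC region, were both low in cKO 1 and cKO 4. Psmb8, which replaces the chymotrypsin-like subunit Psmb5, had 8.64, 8.16, 8.56 and 8.79 in WT and 7.73, 8.63, 8.56 and 7.90 in cKO. Its cKO tumors fell into a low pair, cKO 1 and cKO 4, and a pair within the WT range. The difference was −0.33 (SE 0.22, interval −0.84 to 0.17, limma adjusted p 0.670), and it was −0.17 without cKO 1.

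Psmb9, which replaces Psmb6, had 6.45, 6.07, 6.27 and 6.47 in WT and 5.62, 6.16, 6.78 and 5.74 in cKO. The cKO group spread over 1.16 against 0.41 in WT and held both the lowest and the highest tumor of the 8. The difference was −0.24 (SE 0.24, interval −0.77 to 0.30, limma adjusted p 0.787), and it was −0.47 without cKO 3, −0.09 without cKO 1 and −0.12 without cKO 4. Psmb10, which replaces Psmb7 and lies outside the MHC region, had 8.02, 7.85, 7.39 and 7.83 in WT and 7.64, 7.84, 7.83 and 7.50 in cKO. Its lowest tumor was WT 3, where Psmb8 and Psmb9 were lowest in cKO 1, and its next lowest were cKO 4 and cKO 1. The difference for Psmb10 was −0.07 (SE 0.14, interval −0.39 to 0.25, limma adjusted p 0.910). Without WT 1 that difference was 0.014, and with any other tumor left out it lay between −0.20 without WT 3 and −0.002 without cKO 4.

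The regulator Nlrc5 varied most from tumor to tumor. Its signals were 4.82, 3.44, 5.02 and 4.82 in WT and 3.74, 3.96, 4.91 and 4.60 in cKO. WT 2 was the lowest of all 8, well below the other WT tumors, and the cKO tumors divided into a low and a high pair that were not those of the transporter genes, with cKO 2 low and cKO 4 high. The difference was −0.23 (SE 0.38, interval −1.07 to 0.62, limma adjusted p 0.880), and with single tumors left out it ran from −0.59 without WT 2 and −0.43 without cKO 3 to −0.06 without WT 3 and −0.04 without cKO 1. The row is dim, not far above the 4.29 that was the median of all values tested.

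**Figure D2:**
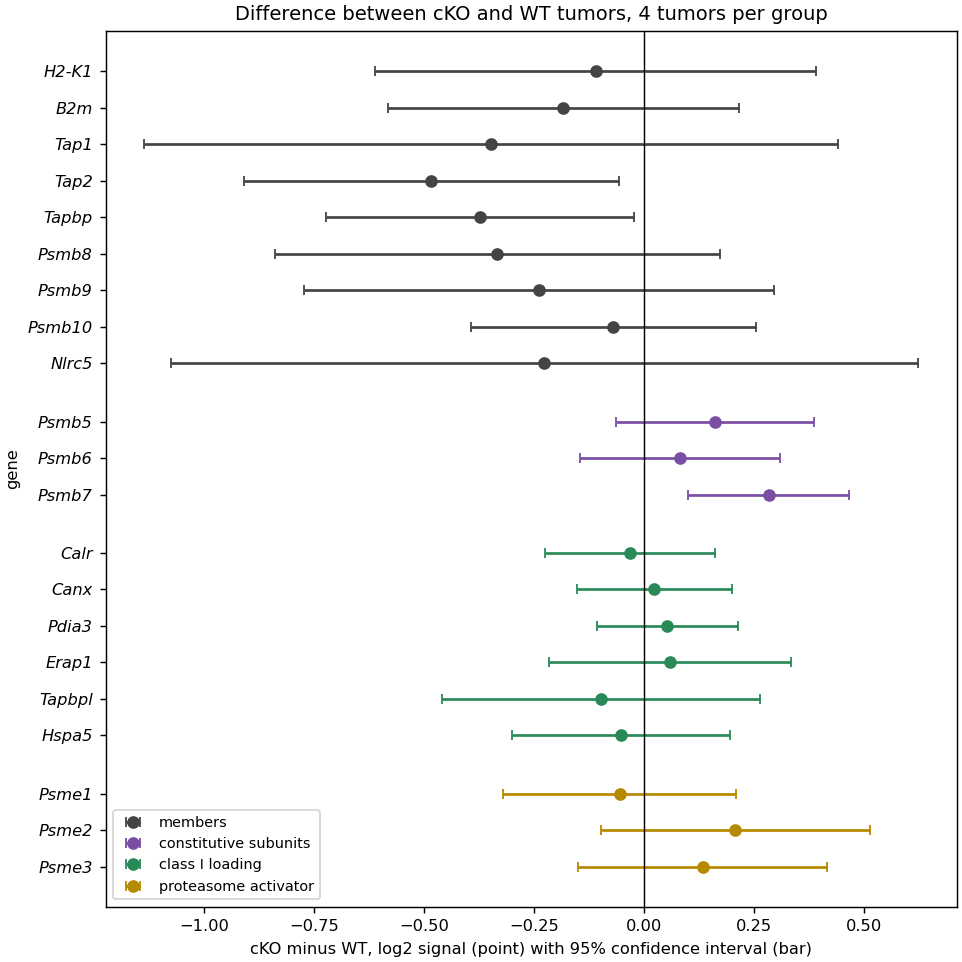
Difference in log2 signal between cKO and WT tumors (point) with its 95% confidence interval from limma (bar, not adjusted for the number of genes), for the 9 measured class I processing genes, the constitutive catalytic subunits, the loading chaperones and the proteasome activator. All 9 points of the first group lie below 0 and 7 of their intervals hold 0, while the 3 constitutive subunits lie above 0.

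The spread of these genes lay more within the groups than between them. The division into cKO and WT took from 2.82% of the sum of squares over the 8 tumors, in H2-K1, to 45%, in Tap2. Over the 8 tumors all 9 genes had a larger SD than the median row with a mean of at least 5, which was 0.20, and 7 exceeded the upper quartile of such rows, 0.30. The cKO tumors covered a wider range than the WT tumors in 6 of the 9 genes and a narrower one in Tap1, Psmb10 and Nlrc5.

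The same tumors were low in most of the genes. cKO 1 was among the lowest 3 tumors in 9 of 9 genes, cKO 4 in 8 and WT 2 in 7. WT 1 was among the highest 3 in 8 genes, and WT 4 and cKO 3 in 6 each. The mean of the 9 genes, each centered on its own mean over the tumors, ran from −0.53 in cKO 1, −0.33 in cKO 4 and −0.25 in WT 2 through 0.03 in cKO 2 and 0.15 in WT 3. It reached 0.30 in WT 1, 0.30 in cKO 3 and 0.32 in WT 4. High and low tumors were thus found in both groups. As a description over these 8 arrays, which the pairs share, the median Pearson r of the 36 pairs of genes was 0.76, with medians of 0.87 for Psmb8 and 0.42 for Psmb10 against the other 8 genes.

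**Figure D3:**
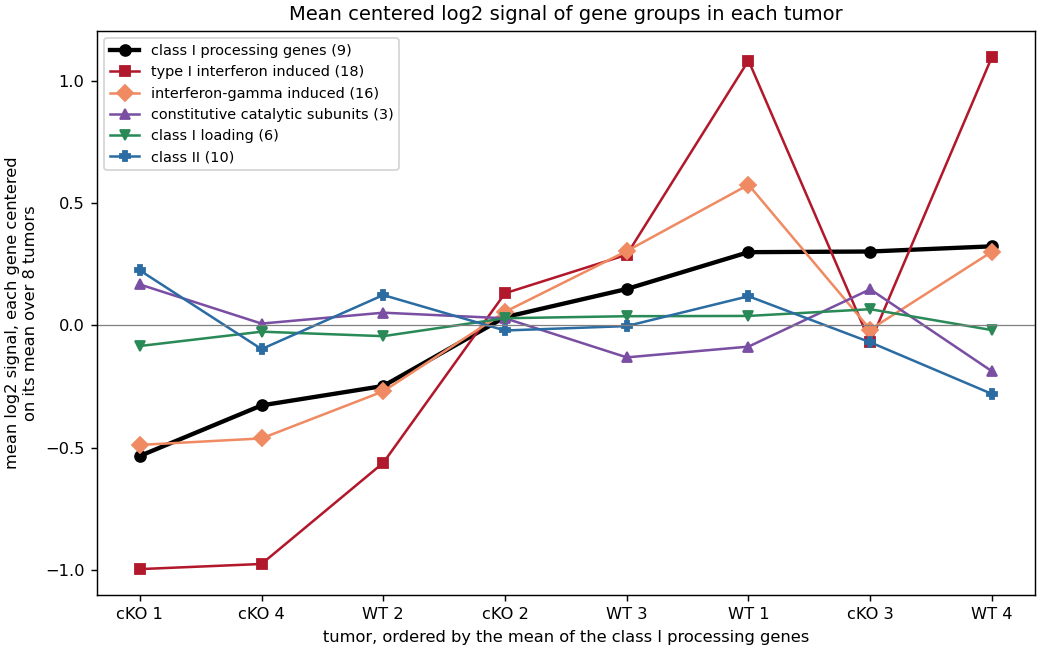
Mean centered log2 signal of 6 gene groups in each tumor (number of measured genes in parentheses), with the tumors ordered by the class I processing genes. The black line rises from −0.53 in cKO 1 to 0.32 in WT 4; both interferon lines are low in the 3 leftmost tumors and high in WT 1 and WT 4, but near 0 in cKO 3, and the other lines stay within 0.28 of 0.

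Genes that act beside the members in peptide loading did not share their direction. Of 6 loading factors, 3 were lower and 3 higher, with a median difference of −0.003 and 0 past the threshold in limma. The chaperones Calr and Canx, which hold folding heavy chains, differed by −0.03 and 0.02. Pdia3, the disulfide isomerase of the loading complex, differed by 0.05 and Hspa5, a general chaperone of the endoplasmic reticulum, by −0.05. Erap1, which trims peptides in the endoplasmic reticulum, differed by 0.06, and the tapasin relative Tapbpl, a peptide editor, by −0.10. Cytosolic peptidases had 4 of 6 measured members lower, with a median of −0.04. Among them Thop1, which destroys peptides in the cytosol, was higher by 0.61 (SE 0.22, limma adjusted p 0.445).

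Most other proteasome subunits had a higher mean in cKO. The constitutive counterparts Psmb5, Psmb6 and Psmb7 were all higher in cKO, by 0.16, 0.08 and 0.28, where 56.5% of all rows had a higher mean. In Psmb7 the WT tumors had 9.06, 9.21, 9.01 and 9.02 and the cKO tumors 9.38, 9.24, 9.41 and 9.39. All cKO tumors lay above all WT tumors there, as in 3.68% of rows, and the difference had a limma adjusted p of 0.319. Of 10 other subunits of the core particle 9 were higher, with a median of 0.09, and of 20 subunits of the regulatory particle 17 were higher, with a median of 0.08. The exceptions were the core subunit Psmb4 (−0.05) and the regulatory subunits Psmd11 (−0.16), Psmc5 (−0.13) and Psmd8 (−0.02), of which Psmc5 and Psmd8 are named after their values were seen.

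An unadjusted p below 0.05 in the higher direction was reached by 2 of those 10 core subunits and 3 of those 20 regulatory subunits, against 5.54% of all rows, and none passed the adjusted threshold in limma. Psma7, an outer ring subunit, was higher by 0.30 and Psma1, of the same ring, by 0.23. The activator subunits Psme1 and Psme2, which interferon-gamma also induces, differed by −0.05 and 0.21 (limma adjusted p 0.914 and 0.661). The assembly factor Pomp differed by 0.19 and Psmg3, another such factor, by 0.29 (limma adjusted p 0.279).

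Each immunoproteasome subunit was then set against the subunit it replaces, as the difference of their log2 signals within a tumor. This asks if the pair changed unequally, and does not compare levels between rows. For Psmb10 against Psmb7 the centered difference averaged 0.18 ± 0.25 over WT tumors and −0.18 ± 0.21 over cKO tumors (SD, 4 tumors each), a change of −0.35 (SE 0.16) with an exact two-sided permutation p of 0.0857. Of the cKO tumors, cKO 1 and cKO 4 lay below every WT tumor. Within this pair the Psmb10 row differed by −0.07 and the Psmb7 row by 0.28, so most of the change lay in Psmb7. For Psmb8 against Psmb5 the change was −0.49 (SE 0.29, exact permutation p 0.171), and for Psmb9 against Psmb6 it was −0.32 (SE 0.32, exact permutation p 0.343). Adjusted over the 3 pairs the exact permutation p values were 0.257, 0.257 and 0.343, where 4 against 4 tumors allow no unadjusted p below 0.0286. Without cKO 1 the change was −0.31 for Psmb8 and −0.13 for Psmb9, which without cKO 3 was −0.57. In all 3 pairs the groups overlapped, so no unequal change passed the test.

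**Figure D4:**
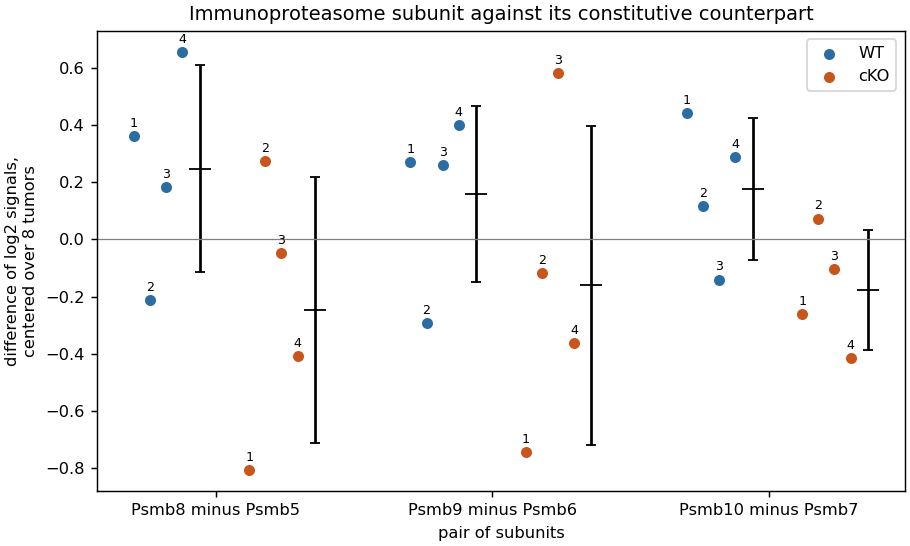
Difference of log2 signals between each immunoproteasome subunit and its constitutive counterpart in WT (blue) and cKO (orange) tumors, centered over the 8 tumors, with tumor numbers above the points and the group mean with its SD (n = 4) as a bar. The means are lower in cKO in all 3 pairs and the groups overlap; cKO 1 is lowest in the first 2 pairs, cKO 4 in the last.

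Other genes of the class I family were mixed. Of 27 listed, 18 had a row with 1 symbol, and 7 of these had a mean below 4. Lower means were seen in 11 of the 18, with a median of −0.07, and 0 had an unadjusted p below 0.05 in limma. H2-T23, which encodes the non-classical molecule Qa-1 that natural killer cell receptors read, had 5.52, 5.58, 5.84 and 5.53 in WT and 5.32, 5.38, 5.61 and 5.25 in cKO, a difference of −0.22 (SE 0.11, limma adjusted p 0.554). Only cKO 3 lay within the WT range. Mr1, which presents vitamin metabolites to innate-like T cells, differed by −0.15, and the lipid-presenting molecules Cd1d1 and Cd1d2 by 0.28 and 0.29. H2-Q10, a secreted relative known from liver, differed by −0.58 (SE 0.48) with cKO 2 high at 7.05.

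The class II pathway, which presents peptides from outside the cell, did not show the order of the class I genes. Of 10 measured genes 4 were lower, with a median of 0.03 and 0 at an unadjusted p below 0.05 in limma. Of the 10, 5 had a mean below 4. The class II chain H2-Ab1, which differed by −0.19 (limma adjusted p 0.911), was lowest in WT 4, at 7.16, where Tap1, Psmb8 and Tapbp were highest, and was highest in cKO 1, at 8.80, where these were lowest or next to lowest. The class II transactivator Ciita differed by 0.11 (limma adjusted p 0.845), and Ctss, the protease that trims the invariant chain, by 0.30.

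Interferon-induced genes were low in the same 3 tumors as the class I processing genes, and the part of interferon in the class I values was not tested. All 18 measured type I interferon induced genes had a lower mean in cKO, against 43.5% of all rows, with a median of −1.0, and 10 reached an unadjusted p below 0.05, against 4.14% of all rows in this direction, but 0 passed the adjusted threshold in limma. Their centered mean was −1.0 in cKO 1, −0.98 in cKO 4 and −0.56 in WT 2, and 1.08 in WT 1 and 1.10 in WT 4. In cKO 3 it was −0.07, a tumor in which the class I processing genes stood at 0.30 and H2-K1 and Psmb9 had their highest signal. Of 16 interferon-gamma induced genes 15 were lower, with a median of −0.38, and the GTPase Irgm2 differed by −1.11 (SE 0.36, limma adjusted p 0.392). Of the 16, 6 had a mean below 4.

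Among 18 signalling genes and regulators 11 were lower and 7 higher, with a median of −0.08. Stat2, a transcription factor of the type I response, had 8.32, 6.89, 7.50 and 8.19 in WT and 6.49, 7.68, 7.29 and 6.55 in cKO. It was low in the tumors where Tap1 was low, and differed by −0.73 (SE 0.36, limma adjusted p 0.566). Its partner Irf9 differed by −0.39 (limma adjusted p 0.589), the receptor chain Ifngr1 by −0.26 and Rfxap, a subunit of the factor on which both transactivators dock, by −0.22 (limma adjusted p 0.506). Rfxank, another subunit of that factor, was higher by 0.16. Ifngr2, the chain that pairs with Ifngr1, was higher by 0.18 and is named after its value was seen.

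The genes most like the class I processing genes were ranked by the Pearson r of their signal with the mean of the 9 over the 8 tumors, among 9932 other genes with a mean of at least 5. The 8 nearest had r between 0.947 and 0.967 and Spearman rho between 0.833 and 0.976. They were chosen for this value, so it has no test. In order they were Bahcc1, Sppl3, Irgm1, Pacs2, Slc25a22, Ptpn11, Ddx60 and Parp14. Irgm1 is an interferon-induced GTPase, Ddx60 an interferon-induced helicase, and Parp14 an ADP-ribosyltransferase. Sppl3 is an intramembrane protease of the Golgi and Ptpn11 a tyrosine phosphatase. Between the groups Parp14 differed by −0.84 (limma adjusted p 0.481) and Sppl3 by −0.09.

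Markers of the cells in the tumors were set beside these values. Luminal epithelial markers were bright, with a mean log2 signal over 7 markers between 9.58 and 10.08 in WT and between 9.34 and 9.88 in cKO. Lower means were seen in 6 of the 7, against 43.5% of all rows. The median of the 7 differences was −0.15, and it was −0.25 without WT 3, −0.06 without WT 4 and −0.09 without cKO 3. The differences ran from −1.15 to 0.08. Of the 7, 1 reached an unadjusted p below 0.05 in limma, in the lower direction, against 4.14% of all rows. The 14 T and natural killer cell markers had a mean between 3.38 and 3.74 in WT and between 3.49 and 3.63 in cKO, and 8 of the 14 had a mean below 4, as had 4 of 6 dendritic cell markers and 3 of 3 B cell markers. Of the 14, 8 were lower and 6 higher, with a median of −0.06, and 3 reached an unadjusted p below 0.05 in the lower direction in limma, against 4.14% of all rows. These were Gzmb, a cytotoxic granule protease, at −0.38, the receptor chain Klrd1 at −0.32 and the T cell receptor chain Cd3d at −0.22. The coreceptor Cd4 had the largest difference of the list, 0.68 (limma adjusted p 0.557), in the higher direction. No marker is listed at 0. Macrophage markers had a mean between 6.13 and 6.63 in WT and between 6.70 and 7.04 in cKO, so the groups did not overlap in this mean. Among single rows, 3.68% had no overlap in this direction. Of the 10 markers 9 were higher, against 56.5% of all rows, and the other differed by −0.40. The median over all 10 was 0.40. Of the 9 higher markers 7 reached an unadjusted p below 0.05 in limma, against 5.54% of all rows in this direction.

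Fibroblast markers were lower in 6 of 6, of which 4 reached an unadjusted p below 0.05 in limma against 4.14% of all rows, with a mean between 8.23 and 8.85 in WT and between 6.02 in cKO 3 and 8.55 in cKO 4. These extremes fell in cKO tumors that were high and low for class I processing, in that order. Their median difference was −1.15, and −0.70 without cKO 3. Endothelial markers were lower in 5 of 5, by a median of −0.33 that was −0.54 without WT 4 and −0.21 without cKO 2. Of the 5, 1 reached an unadjusted p below 0.05 in limma, against 4.14% of all rows in this direction. Beside the 6 of 6 and 5 of 5 lower here, 43.5% of all rows had a lower mean in cKO. None of these markers passed the adjusted threshold in limma, and the part of cell make-up in the class I values was not tested.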

How the data were processed

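Total RNA from 8 tumors, 4 per group, was labelled from 400 ng and hybridised to 1 Affymetrix array each, as the labels' protocols state. The authors deposited log2 signals, for which the submitters' processing notes name RMA and limma; their versions and settings are not stated in the sources used here. Array medians lay between 3.64 and 3.71 and all values between 0.853 and 12.9, any pair of arrays correlated over rows with r between 0.976 and 0.989, and precision is limited by the number of arrays. The labels call the tumors biological replicates, and each counted as 1.

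Of 41345 rows, 23521 had 1 gene symbol, 1814 had several and 16010 are unnamed here. Symbols were updated by gene identifier through RefSeq (GRCm38.p6), which also gave the promoters. limma 3.58.1 in R 4.3.3 (lmFit, eBayes, two-sided, no covariate) was fitted to all 23521 rows, with Benjamini-Hochberg adjustment over them and a threshold of 0.05, and was tested on simulated data. Residual degrees of freedom were 6, with 3.07 more from the variance prior. Subunit pairs were compared by exact permutation.

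The members, lists and comparisons were chosen with earlier results of these data known. Named genes are the members, Mmp14, any gene of lists with up to 12 measured genes, the 6 with the smallest p in longer lists, and the 8 nearest in pattern. Alternatives were other scalings, a filter on dim rows, another variance prior, all rows, blocks, averaged rows and each tumor left out.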

Additional observations from a re-analysis of the deposited data

Results flagged for a closer look

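In groups of 4 tumors, a tumor far from the other 3 was looked for in the genes and group means above. Of 212 groups of 4, 10 held such a tumor, which is 4.72%, where chance gives about 5%. Among the class I processing genes, WT 2 was low in B2m at 11.72 and in Nlrc5 at 3.44. WT 2 was high in the core subunit Psmb1 at 9.30.

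cKO 2 was low in the assembly factor Psmg2 at 7.10 and high in the regulatory subunits Psmd9 at 6.75 and Psmd14 at 7.85 and in H2-Q10 at 7.05. cKO 3 was low in the core subunit Psma3 at 10.27. WT 1 was low in the class II gene H2-Ob at 2.62, and WT 4 had a low centered mean of the endothelial markers, −0.13.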

How the results depend on the processing

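No class I processing gene passed the threshold under any alternative run, and 9 of the 9 had a lower mean in cKO in each, other than 8 without WT 1, 8 without cKO 1 and 7 within arrays 5 to 8, with a median between −0.45 and −0.09 when single tumors were left out. Tap2 and Tapbp had no unadjusted p below 0.05 with the replicate block, nor had Tapbp with the array block or averaged rows. With single tumors left out H2-K1 ran from −0.26 to 0.12 and Psmb10 from −0.20 to 0.014. H2-K1 changed sign without cKO 1 (0.12) and within arrays 5 to 8 (0.048), and Psmb10 without WT 1 (0.014) and within arrays 5 to 8 (0.055). The lowest limma adjusted p among the 9 genes lay between 0.331 and 0.759 over the alternatives.

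The number of rows past the threshold over the whole table, 2, became 8 with all rows of the file, 1 with the array number (1 to 4 against 5 to 8) as a block and 0 with the replicate block, and ran from 0 to 3 with 1 tumor left out. Mmp14 was not past it with the replicate block (limma adjusted p 0.353) or the array block (0.0708). Tumors with the same number deviated together with r of −0.02, −0.20, 0.29 and −0.24 over 10186 rows. The highest r of each WT tumor with a cKO tumor of another number was 0.22, 0.22, 0.10 and 0.37. Same-numbered tumors were thus the closer only for number 3, and these values cannot settle whether tumors were paired. The changes of the 3 subunit pairs kept their sign in all alternatives. They ran from −0.67 to −0.31 for Psmb8 against Psmb5 when single tumors were left out. For Psmb9 against Psmb6 they ran from −0.57 to −0.13, and for Psmb10 against Psmb7 from −0.46 to −0.27. Single tumors moved the median by over 1.5 times in class I loading (−0.022 to 0.029), peptide trimming (−0.078 to 0.021) and other class I genes (−0.115 to −0.003). They did so in interferon regulators (−0.107 to −0.025), class II (−0.019 to 0.067) and T and natural killer cells (−0.152 to −0.015). The same held for proteasome activators with assembly factors (0.086 to 0.215), dendritic cells (−0.016 to 0.045) and B cells (−0.040 to 0.042), besides the markers given above. Dim rows limit what can be said of Nlrc5 and of the T cell, dendritic and B cell markers. The same holds for parts of the other class I, class II and interferon-gamma induced lists.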
